A study of Homo sapiens with 18 samples.

Results

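In 18 ATAC-seq libraries of PC9 cells, 79483 regions of open chromatin were called in any library. Of these, 331 (0.416%) were called in cells without erlotinib and in cells that survived it, yet were all but missing after 12 h of the drug. These regions were chosen by a rule on the deposited peak lists. A region had to be called in all 3 libraries of vehicle-treated unsorted PC9 and in all 3 libraries of drug-tolerant persisters (DTP). It had to be called in at least 4 of 6 libraries of sorted vehicle-treated cells. Of the 6 libraries of sorted cells after 12 h of erlotinib, at most 1 could call it. The 331 are referred to here as 12 h-absent regions. The calls that chose them are given as a description, with no test.

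PC9 is an established human lung adenocarcinoma line whose growth depends on a mutant, constantly active EGFR, and erlotinib is an inhibitor of the EGFR kinase. ATAC-seq marks open DNA by letting a transposase insert sequencing adapters, and a peak is a stretch where insertions pile up above the surroundings. Open regions are mostly promoters and enhancers, where bound transcription factors keep nucleosomes away. EGFR signalling through the MAP kinase cascade controls several such factors, and enhancers are known to gain or lose openness as factors come and go, while promoters change less. Drug-tolerant persisters are a small surviving fraction of a cancer cell population, with a chromatin state that is known to differ from that of the parental cells.

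The DTP group (3 libraries) were PC9 cells that survived 8 days in 1 µM erlotinib. The PC9 group (3 libraries) was the unsorted population under the vehicle DMSO, with no duration given. Erlotinib-treated sorted cells had 12 h of 1 µM drug and were then sorted with Aldefluor, a dye that aldehyde dehydrogenase activity traps in cells, into ALDH-high (3 libraries) and ALDH-low cells (3 libraries). Their vehicle counterparts had 12 h of DMSO and the same sort (3 libraries of ALDH-high and 3 of ALDH-low cells). All 18 libraries came from this single line, and cells had been frozen and thawed before the assay. The 12 h point exists only as sorted cells and the DTP point only as unsorted cells, so the passage of time and the sort cannot be told apart when these are set side by side. The labels do not say whether libraries of a group were separate cultures, so the spread behind each p-value is that of libraries and can be technical.

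Each library had its own peak list, and a region without a peak in a list is one that was not called there, which is not proof of closed chromatin. Read depth is unknown. DTP lists held 42204 to 45241 peaks on chromosomes 1 to 22 and X, and PC9 lists 39394 to 41831. ALDH-high erlotinib lists held 34317 to 40710 peaks, ALDH-low erlotinib lists 32583 to 40670, ALDH-high DMSO lists 30336 to 32819 and ALDH-low DMSO lists 26225 to 26438. The erlotinib lists, which lacked most of the 12 h-absent regions, were thus mostly longer than the DMSO lists. They were all shorter than the DTP lists, and which regions met the rule depended on list length, as given below. Gene positions and sequence of hg19, the build of the files, were not used here, so the regions are given by position and cytogenetic band with no gene, promoter or motif, and the line was not checked against marker genes.

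**Figure D1:**
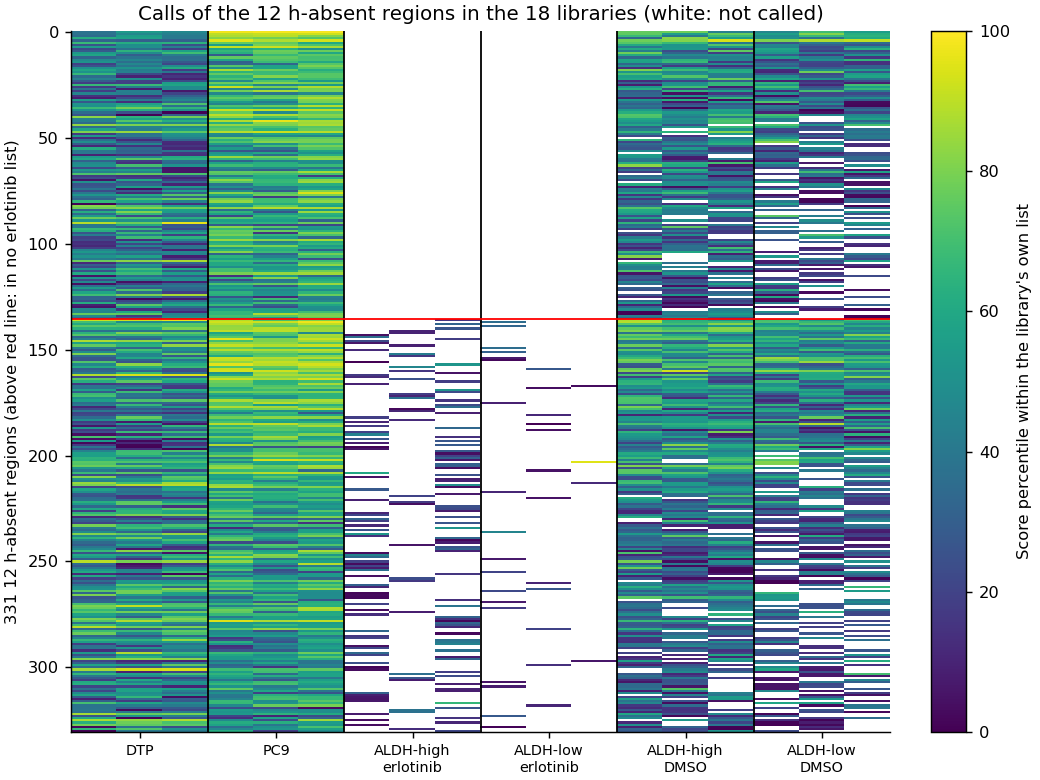
Each row is 1 of the 331 12 h-absent regions and each column 1 of the 18 libraries, grouped by the 6 conditions. Colour gives the percentile of the region's best peak by score within that library's own list, and white means not called. The 136 regions above the red line were in no erlotinib list, the 195 below it in 1. Colours run from dark at percentile 0 to yellow at 100, and DTP columns (medians 42.2 to 46.3) are darker than PC9 columns (63.3 to 66.2).

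After 12 h of erlotinib, 136 of the regions were called in none of the 6 libraries and 195 in 1. Where a peak was listed, it ranked low: the median percentile by score within its own list was 16.1 (quartiles 7.45 and 27.6), where 0 is the weakest and 100 the strongest peak of that list. Of the 195 peaks, 69 (35.4%) lay below percentile 10 of their list and 7 (3.59%) above percentile 50. Low rank is usual for such calls: all 13350 regions called in 1 erlotinib library had a median of 10.9, with 46.5% below percentile 10 and 0.772% above 50, so the 12 h-absent regions ranked somewhat higher than these. The lists are numbered by the peak caller along each chromosome, with a few numbers missing (93 to 326 per library, 0.220% to 1.14%). Among 1791 cases of a 12 h-absent region not called in an erlotinib library, the numbers of the flanking peaks left room for a removed peak in 33 (1.84%). In the rest no peak was numbered there at all. Missing numbers covered all the erlotinib libraries that lacked the region for 3 of the 331, at 6q12 (chromosome 6, 64057292 to 64058166), 11p11.12 (chromosome 11, 50046968 to 50048090) and Xq22.3 (chromosome X, 108188858 to 108189766). Another 5 had missing numbers in 2 to 4 erlotinib libraries, at 1q42.3, 12q24.32, 14q12, 16q12.1 and 17q11.2, and 1 region had them in a single library. For the 8 with missing numbers in more than 1 library, the absence at 12 h rests in part on peaks that may have been called and then removed, and with those peaks they could fail the rule.

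The residual calls at 12 h were mostly in ALDH-high cells. ALDH-high erlotinib libraries a, b and c called 65, 27 and 69 of the 331 regions, against 18, 12 and 4 in ALDH-low erlotinib libraries, and the groups did not overlap. The means were 53.7 ± 23.2 and 11.3 ± 7.02 regions (SD, n = 3 libraries each), a difference of 42.3. This comparison was chosen after the values were seen, and since the rule limits these calls to 1 per region it is a description with no test. ALDH-high library a and ALDH-low library a had lists of nearly equal length (40710 and 40670 peaks) and called 65 and 18 regions. Of the 195 regions called once, 161 (82.6%) were in an ALDH-high library, where 55.8% of all 13350 regions called in 1 erlotinib library were, and 34 were in an ALDH-low library, with 44.2% over all. With every list cut to its 26225 highest-scoring peaks, ALDH-high erlotinib libraries called 6, 9 and 11 of the regions and ALDH-low erlotinib libraries 3, 0 and 1.

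Under DMSO the same fraction called more of the regions. ALDH-high DMSO libraries a, b and c called 311, 300 and 293, against 249, 242 and 239 in ALDH-low DMSO libraries. These groups did not overlap, with means of 301 ± 9.07 and 243 ± 5.13 (SD, n = 3 each) and a difference of 58.0 regions. As shares this was 91.0% ± 2.74 and 73.5% ± 1.55. Regions with the same PC9, DTP and DMSO conditions but in all 6 erlotinib lists had 97.5% ± 0.734 and 94.0% ± 0.0914, also without overlap. The rule used these calls, so the difference is likewise a description with no test. Of the 331, 102 were called in all 6 DMSO libraries. Another 82 were called in all ALDH-high and 2 ALDH-low libraries and 62 in all ALDH-high and 1 ALDH-low library. The reverse was rare: 24 were in all ALDH-low and 2 ALDH-high libraries and 4 in all ALDH-low and 1 ALDH-high library. Among the 229 regions called in 4 or 5 DMSO libraries, 144 (62.9%) were in more ALDH-high than ALDH-low libraries, near the 58.8% of all 8290 regions called in 4 or 5, and 28 (12.2%) were in fewer, against 18.2%. In lists of equal length the numbers were 114 (49.8%) with more and 53 (23.1%) with fewer, where all such regions had 44.5% and 30.4%. ALDH-high lists were longer in every DMSO library, and with equal lists the difference in called 12 h-absent regions fell to 22.7 (263, 266 and 262 against 246, 242 and 235). As shares this was 79.7% ± 0.629 and 72.8% ± 1.68. The regions in all 6 erlotinib lists had 94.4% ± 0.311 and 93.9% ± 0.138 in equal lists, which overlapped.

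**Figure D2:**
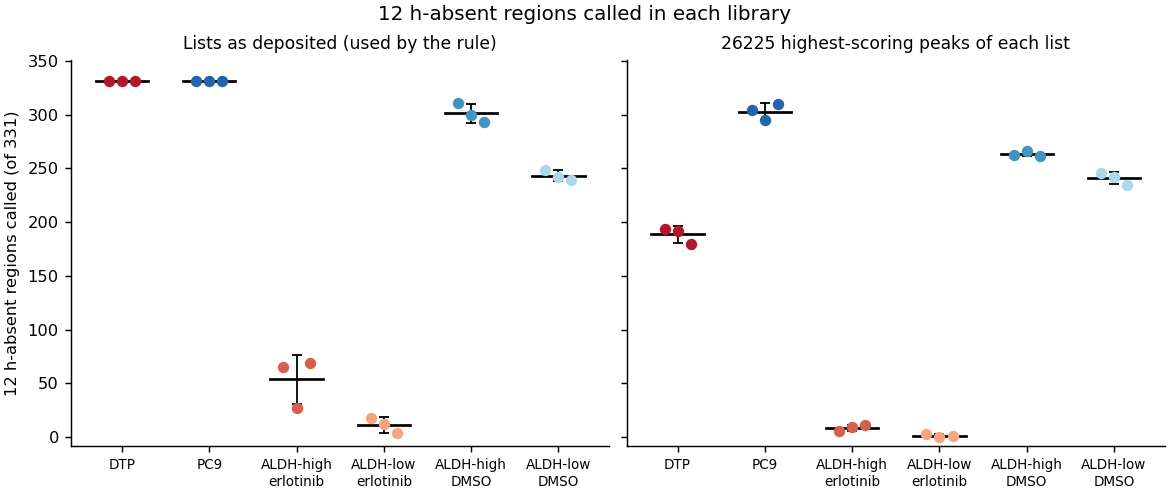
Number of the 331 12 h-absent regions called in each library (points, 3 per group), with the mean (long bar) and SD (error bar). Left, lists as deposited, which the rule used; right, the 26225 highest-scoring peaks of each list, where DTP libraries called 180 to 194 and PC9 libraries 295 to 310.

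Under vehicle the regions were of middle rank in the unsorted population. Within the PC9 a, b and c lists their median percentile was 64.2, 63.3 and 66.2. Regions that were in all 6 erlotinib lists and otherwise met the same conditions, 17369 regions called here stayed-open regions, had medians of 75.8, 75.2 and 76.7 in the same PC9 lists. The 249 regions that were lost at 12 h by the same conditions but called in no DTP library had 48.1, 47.9 and 51.1. In each PC9 list the 12 h-absent regions thus stood between those that stayed and those that were still missing in DTP. The order was the same in every ALDH-high DMSO list, where the group means of the medians were 40.6 for the 12 h-absent, 71.0 for the stayed-open and 30.8 for the still missing regions, and in every ALDH-low DMSO list, at 32.9, 67.2 and 25.8.

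**Figure D3:**
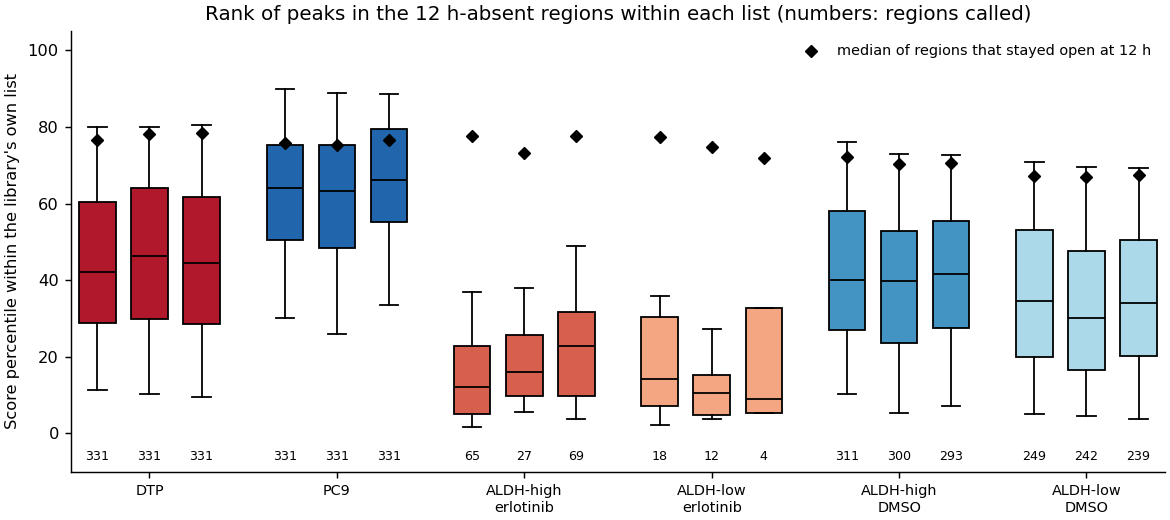
Score percentile of the 12 h-absent regions within each library's own list: line, median; box, quartiles; whiskers, the region values nearest inside the 5th to 95th percentiles. Only called regions enter, with their number under each box (ALDH-low erlotinib c, with 4, has no whiskers), and diamonds mark the median of the stayed-open regions. Medians are 42.2 to 46.3 in DTP lists and 63.3 to 66.2 in PC9 lists, while the diamonds lie at 76.7 to 78.4 in DTP and 75.2 to 76.7 in PC9 lists.

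In persisters the regions were called again, but lower down the lists. Their median percentile was 42.2, 46.3 and 44.4 within the DTP a, b and c lists, against 64.2, 63.3 and 66.2 within PC9 lists. Since ranks from lists of unequal length are not a measure of change, the comparison was made on equal-size lists, each cut to its 26225 best peaks by score, as many as the shortest list had. Of the 331 regions, 194, 192 and 180 were then called in DTP libraries, against 304, 295 and 310 in PC9 libraries, with no overlap. The means were 189 ± 7.57 in DTP and 303 ± 7.55 in PC9 (SD, n = 3 each), a difference of −114 regions. As shares this was 57.0% ± 2.29 in DTP and 91.5% ± 2.28 in PC9. Stayed-open regions had 92.0% ± 0.222 in DTP and 93.3% ± 0.291 in PC9. The gap of the 12 h-absent regions to the stayed-open regions was −35.0 ± 2.43 points in DTP and −1.81 ± 2.40 points in PC9, and these differed by −33.2 points. The rule asks for all 3 libraries of both DTP and PC9, but it also asks for calls in vehicle-treated cells, the treatment of PC9, and for their absence under the drug that DTP received. It can thus favour PC9 over DTP, so the difference is a description with no test. How much of the difference the rule sets was not tested.

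Shorter lists gave the same order. Among the 20000 highest-scoring peaks were 118, 127 and 106 of the regions in DTP, against 250, 246 and 268 in PC9. Among the 10000 highest-scoring peaks were 31, 28 and 24 in DTP and 84, 84 and 103 in PC9. Stayed-open regions had 50.8% ± 0.108 in DTP and 51.1% ± 0.0831 in PC9 at this length.

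**Figure D4:**
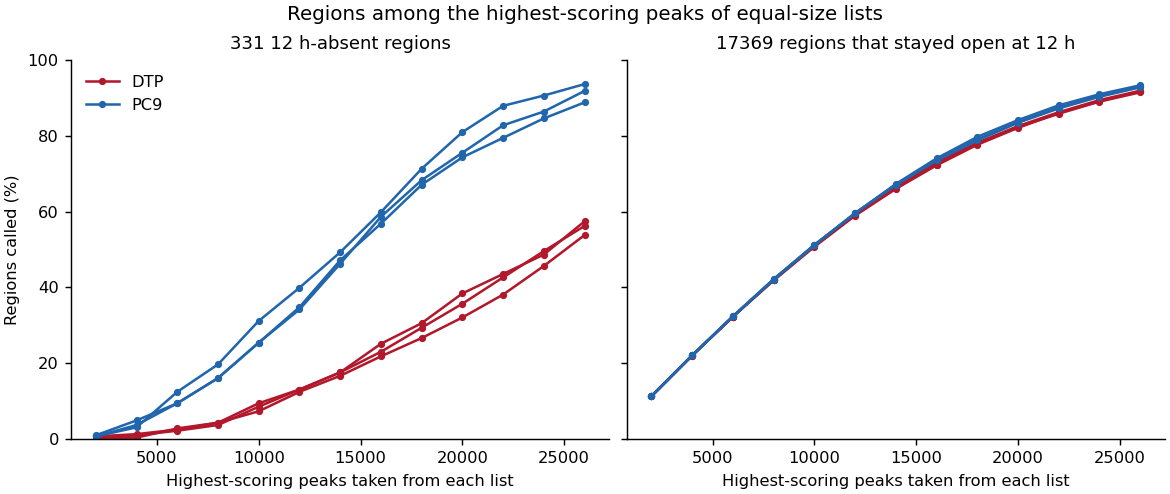
Share of regions called (vertical axis, %) among the highest-scoring peaks of each list (horizontal axis, number of peaks taken), 1 line per library, DTP in red and PC9 in blue. Left, the 331 12 h-absent regions, where DTP lines run below all PC9 lines from 4000 peaks on; right, the 17369 stayed-open regions, where at 20000 peaks the means were 82.3% in DTP and 83.7% in PC9.

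Region by region, the equal lists split the 331 as follows. All 3 DTP and all 3 PC9 lists held 101 of them. Fewer DTP than PC9 lists held 195 of them, more DTP than PC9 lists held 20 and as many held 116. In all 3 PC9 and no DTP list were 53 regions (16.0%), where 2.06% of all 24186 regions called in every PC9 and DTP library were and 0.892% of stayed-open regions. In all 3 DTP and no PC9 list were 2 (0.604%), with 1.19% over all and 0.489% among stayed-open regions. These 2 lay at 1p33 (chromosome 1, 47719266 to 47720300) and 6p21.1 (chromosome 6, 42733651 to 42734609). At 1p33 the within-list percentiles were 42.1, 69.4 and 62.6 in DTP and 13.2, 29.0 and 30.0 in PC9. At 6p21.1 they were 60.8, 46.6 and 68.0 in DTP and 33.6, 27.9 and 19.7 in PC9. Both were named after their values were seen.

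The gap between DTP and PC9 in equal lists was larger where fewer 12 h erlotinib libraries called the region. The rule used these calls, so this grading cannot show how much of the gap the rule sets. Among regions called in all PC9, all DTP and at least 4 DMSO libraries, the share in equal lists of DTP was below that of PC9 by 40.4 points where no erlotinib library held the region (51.7% in DTP and 92.2% in PC9, 136 regions). It was below by 30.4 points where 1 did (60.7% and 91.1%, 195 regions). Just outside the rule, with 2 erlotinib libraries (291 regions), the share was 61.1% in DTP and 88.4% in PC9. With 3, 4 and 5 libraries, DTP minus PC9 was −19.0, −16.5 and −11.8 points. With all 6 the shares were 92.0% in DTP and 93.3% in PC9. At the other limit, regions with exactly 4 DMSO libraries (123) had 60.7% ± 5.29 in DTP and 87.0% ± 3.73 in PC9, those with 6 (102) had 50.7% ± 3.96 and 97.7% ± 0.566, and those just outside with 3 (156) had 54.9% ± 4.17 and 74.1% ± 3.03. The PC9 share thus moved with the DMSO condition of the rule. The 40 regions in all 6 DMSO and no erlotinib library had 49.2% ± 6.29 in DTP and 96.7% ± 3.82 in PC9 (SD, n = 3 libraries throughout).

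How often a region missing at 12 h was called in persisters was counted without the condition on DTP. Of 875 regions called in all PC9, at least 4 DMSO and at most 1 erlotinib library, 331 (37.8%) were in all 3 DTP libraries, 153 in 2, 142 in 1 and 249 (28.5%) in none. Of all 22995 regions with the same PC9 and DMSO calls, 89.0% were in all 3 DTP libraries and 2.70% in none. The share in all 3 was 30.6% with 0 erlotinib libraries, 45.2% with 1, 55.6% with 2, 63.7% with 3, 66.9% with 4, 79.3% with 5 and 95.4% with 6. It was higher in regions that ranked higher in PC9. Of the regions missing at 12 h with a mean PC9 percentile under 40, 26 of 181 (14.4%) were in all DTP libraries. Between 40 and 60 it was 117 of 343 (34.1%), between 60 and 80 it was 139 of 275 (50.5%) and from 80 it was 49 of 76 (64.5%). Regions in all 6 erlotinib lists and with the same PC9 and DMSO calls had 82.8%, 90.9%, 96.8% and 99.4% in the same ranges.

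**Figure D5:**
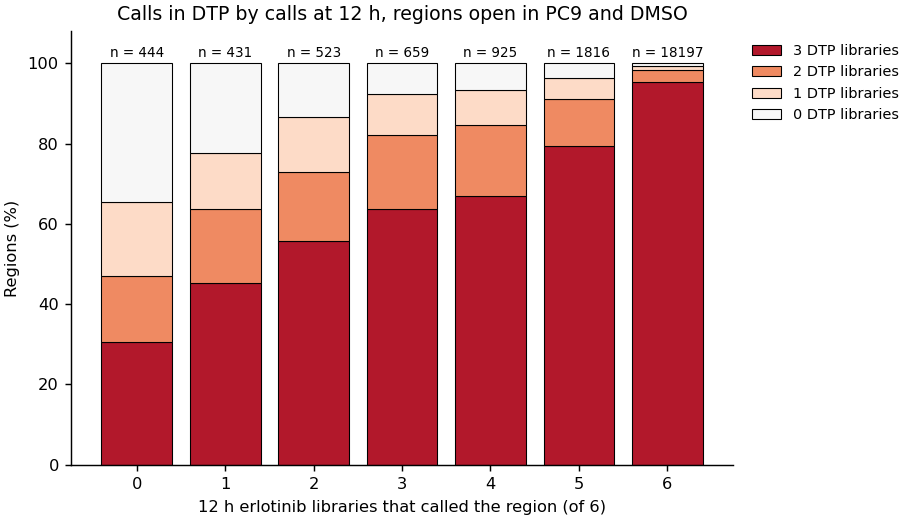
Regions called in all 3 PC9 and at least 4 of 6 DMSO libraries, grouped by the number of 12 h erlotinib libraries that called them (horizontal axis), and the share of each group (vertical axis, %) called in 3, 2, 1 or 0 DTP libraries. The first 2 bars hold the 331 12 h-absent regions as their darkest segments (136 of 444 and 195 of 431), and the darkest share is higher in each bar to the right, up to 95.4%.

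The 20 regions named by rule were those with the highest percentile in the weakest PC9, DTP or DMSO list that called them, which ran from 34.0 to 52.9, against a median of 10.6 over all 331. At 10q23.1 (chromosome 10, 86028953 to 86030270, 1318 bp) the within-list percentiles were 92.0, 92.4 and 96.6 in DTP a, b and c and 88.5, 70.7 and 79.7 in PC9. They were 87.8, 62.2 and 52.9 in ALDH-high DMSO and 70.2, 53.4 and 69.2 in ALDH-low DMSO lists, and at 12 h of erlotinib ALDH-high library c called it, at 15.1. All DTP percentiles of this region were above all its PC9 percentiles, although lists of unequal length do not make this a measure of change. At 20p12.1 (chromosome 20, 16399358 to 16400497) DTP lists had 64.2, 80.2 and 74.3 and PC9 lists 58.7, 73.7 and 46.9, which overlapped. At 7q11.22 (chromosome 7, 69335929 to 69337343) DTP lists had 73.3, 68.1 and 66.1 and PC9 lists 67.1, 72.0 and 86.7, which also overlapped. The 7q11.22 region was called at 12 h in ALDH-high erlotinib library a, at 4.46, and the 20p12.1 region in ALDH-high erlotinib library b, at 9.86.

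Others of the 20 were near the top of PC9 lists and in the middle of DTP lists. At 5p12 (chromosome 5, 43281081 to 43283129, 2049 bp) the percentiles were 37.9, 53.8 and 46.2 in DTP and 98.0, 98.6 and 99.1 in PC9. No erlotinib list held it and all 6 DMSO lists did, at 76.0, 77.8 and 43.2 in ALDH-high and 45.9, 69.1 and 55.9 in ALDH-low cells. At 7p15.2 (chromosome 7, 26998115 to 26999563) they were 37.6, 46.8 and 43.3 in DTP and 89.9, 91.8 and 92.9 in PC9, with no erlotinib call and 6 DMSO calls. At 2q14.2 (chromosome 2, 119144124 to 119145729) they were 35.0, 54.9 and 40.6 in DTP and 87.7, 89.8 and 81.9 in PC9, again with 0 erlotinib and 6 DMSO calls. At 11p13 (chromosome 11, 35235880 to 35237098) they were 36.9, 38.1 and 38.1 in DTP and 90.0, 90.1 and 85.2 in PC9. This region was in no equal-size DTP list and all equal-size PC9 lists. Its only call at 12 h was in ALDH-high erlotinib library b, at 9.79.

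The remaining regions of the 20 without any call at 12 h lay at 1p31.3 (chromosome 1, 62458491 to 62459691), 1q41 (chromosome 1, 221135107 to 221136258) and 17q22 (chromosome 17, 54979339 to 54980614). At 1p31.3 DTP lists had 82.6, 64.8 and 78.4 and PC9 lists 83.0, 72.4 and 79.8. At 1q41 DTP lists had 43.9, 56.9 and 50.1 and PC9 lists 62.6, 58.1 and 66.3. At 17q22 DTP lists had 77.5, 82.0 and 78.0 and PC9 lists 83.0, 88.8 and 87.4. The 17q22 region was in 4 DMSO lists, at 73.0, 48.4 and 57.7 in ALDH-high cells and 35.0 in ALDH-low library c. Of the 20, 6 had no erlotinib call, 14 had 1, 11 were in all 6 DMSO lists and 15 were in the equal-size lists of all 3 DTP libraries.

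Between these extremes, regions with 6 DMSO calls stayed in the equal-size lists of all DTP and PC9 libraries while ranking lower in DTP lists. At 20p12.1 (chromosome 20, 14269119 to 14270430) the percentiles were 69.6, 49.2 and 49.2 in DTP and 92.6, 91.9 and 97.6 in PC9, and ALDH-low erlotinib library a held it at 35.7. At 3q26.32 (chromosome 3, 178495168 to 178496278) they were 61.0, 68.6 and 73.9 in DTP and 89.2, 79.7 and 90.9 in PC9, with a call in ALDH-high erlotinib library c at 32.3. At 5q31.3 (chromosome 5, 142388258 to 142389355) they were 63.6, 63.2 and 80.4 in DTP and 84.7, 88.8 and 84.9 in PC9, with a call in the same erlotinib library at 26.8. At 8q24.22 (chromosome 8, 131661423 to 131662748) they were 73.9, 72.6 and 72.7 in DTP and 83.8, 75.6 and 81.6 in PC9. In all 4 every DTP percentile was below every PC9 percentile, although lists of unequal length do not make this a measure of change.

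Another 5 of the 20 were in 5 DMSO lists and had their call at 12 h in ALDH-high erlotinib library c. At 9q21.13 (chromosome 9, 77374797 to 77375938) the percentiles were 44.1, 68.0 and 71.1 in DTP and 49.9, 69.7 and 70.4 in PC9. At 2q32.3 (chromosome 2, 192036123 to 192037484) they were 64.6, 35.6 and 45.0 in DTP and 42.5, 67.3 and 66.2 in PC9. DTP and PC9 overlapped in both. At 6q25.3 (chromosome 6, 160658316 to 160660794) they were 56.8, 68.8 and 43.7 in DTP and 66.6, 77.3 and 66.8 in PC9, which overlapped as well. At 17q11.1 (chromosome 17, 25773329 to 25774564) they were 56.3, 61.1 and 66.8 in DTP and 78.7, 83.2 and 80.1 in PC9. At 2q37.1 (chromosome 2, 235019860 to 235020960) they were 63.6, 64.4 and 63.4 in DTP and 66.6, 93.5 and 90.4 in PC9. In these last regions all DTP percentiles were below all PC9 percentiles.

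Regions were also named for having 4 DMSO lists and the highest ranks among those, or for the extremes of width. At 12q21.1 (chromosome 12, 72689842 to 72690989) DTP lists had 49.2, 60.8 and 33.9 and PC9 lists 63.7, 58.3 and 67.7. At 1q44 (chromosome 1, 243961723 to 243962669) they had 39.7, 74.2 and 68.9 in DTP and 70.5, 62.1 and 74.4 in PC9, and at 12 h ALDH-high erlotinib library a held it at 30.6. The widest region, at 8q24.3 (chromosome 8, 145009313 to 145018908, 9596 bp), was the only one over 3000 bp. Its percentiles were 74.3, 71.9 and 71.4 in DTP and 47.6, 59.4 and 65.6 in PC9. It was in 5 DMSO lists, and its call at 12 h, in ALDH-low erlotinib library c, was strong, at 95.2. The narrowest, at 8q21.3 (chromosome 8, 90270662 to 90271359), measured 698 bp, and its percentiles were 77.0, 71.3 and 62.4 in DTP and 74.5, 60.4 and 71.8 in PC9.

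The 12 h-absent regions were narrow. Their median width was 1089 bp (quartiles 1006.5 and 1202), against 1664 bp (quartiles 1350 and 2138) for stayed-open regions and 1071 bp for those also missing in DTP. A region merges the peaks of all lists, so one called in more lists can be wider by construction. Just outside the rule the medians were similar, at 1124 bp with 2 erlotinib libraries and 1037 bp with 3 DMSO libraries. The peaks inside them had median widths of 776, 709 and 733 bp in DTP and 765, 798 and 760 bp in PC9 libraries. The difference was −35.0 bp, and the libraries of DTP and PC9 overlapped (exact permutation p = 0.3). It turned to 7.67 bp with peaks of score 100 or more (exact permutation p = 0.9) and to 37.0 bp in equal-size lists (exact permutation p = 0.4). Divided by each library's median peak width, the values were 0.877, 0.843 and 0.871 in DTP and 0.919, 0.939 and 0.930 in PC9. These did not overlap (exact permutation p = 0.1). Stayed-open regions had wider peaks in DTP (1175, 1147 and 1153 bp) than in PC9 (1104, 1115 and 1099 bp), a difference of 52.3 bp (exact permutation p = 0.1). The difference between region classes, 12 h-absent less stayed-open, was −419 ± 19.5 bp in DTP and −332 ± 12.7 bp in PC9 (SD, n = 3, exact permutation p = 0.1). The rule did not use width, but it can favour PC9 over DTP. The p-values for DTP against PC9 at the 12 h-absent regions therefore cannot separate width from the choice of regions. All 3 DTP peaks were narrower than all 3 PC9 peaks in 46 of the 331 (13.9%, against 6.47% of regions called in every PC9 and DTP library) and wider in 21 (6.34%, against 14.9%). Over the 102 regions called in every DMSO library, peak widths were 851, 857.5 and 881 bp in ALDH-high and 789.5, 815.5 and 820.5 bp in ALDH-low libraries. That difference of 54.7 bp (exact permutation p = 0.1) was close to the 45.0 bp of stayed-open regions.

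The regions were scattered. They lay in 262 cytogenetic bands, 210 of which held a single one, and no band held more than 4. Bands with 4 were 7q36.1, 9q31.1, 11q23.3 and 11q24.3. Against the 20470 regions with the same PC9, DTP and DMSO calls, chromosome 11 held 32 of the 331 (9.67%, against 5.31%) and chromosome 5 held 29 (8.76%, against 6.11%). Chromosome 19 held 1 (0.302%, against 3.70%), chromosome 22 held 2 (0.604%, against 1.79%) and chromosome 14 held 6 (1.81%, against 3.23%). The still missing regions went in the same directions, with 7.23% on chromosome 11 and 6.83% on chromosome 5. They had 0.402% on chromosome 19, 0% on chromosome 22 and 2.01% on chromosome 14. Giemsa-dark bands, which are AT-rich and poor in genes, held 92 (27.8%), against 16.8% of stayed-open and 22.9% of still missing regions. These are descriptions, since regions are not replicates.

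Neighbouring 12 h-absent regions on a chromosome were a median of 5.44 Mb apart, and 6 pairs were closer than 100 kb. The closest pair, 25351 bp apart with no called region between, was at 1p22.1 (chromosome 1, 92047852 to 92048844 and 92074196 to 92075879). The region with the lower coordinates had percentiles of 79.7, 73.2 and 80.6 in DTP and 57.4, 57.4 and 57.8 in PC9. Its partner had 77.1, 75.4 and 60.1 in DTP and 81.7, 76.5 and 87.2 in PC9. Both were called at 12 h in ALDH-high erlotinib library c alone. The next pairs were at 12q23.3 (54064 bp apart) and 11q23.3 (65980 bp apart, 5 called regions between them, none held by all 6 erlotinib libraries). A called region not of the same class lay within 10 kb of 189 of the 331 (57.1%), against 72.7% of still missing regions. Of 81 such neighbours with PC9 and DMSO calls like theirs, 59 (72.8%) were in all 6 erlotinib lists and 6 (7.41%) in at most 1, against 79.1% and 3.81% of all 22995 regions with those calls. Over all 300 neighbours, whatever their calls under vehicle, ALDH-high erlotinib libraries called 47.6% ± 4.60 and ALDH-low erlotinib libraries 43.6% ± 6.48 (SD, n = 3 each). Under DMSO the same neighbours had 39.7% in ALDH-high and 31.3% in ALDH-low libraries. In ALDH-high and ALDH-low erlotinib libraries, neighbours of still missing regions had 55.8% and 52.3%. Where an erlotinib library lacked a 12 h-absent region, its nearest peak was a median of 17333 to 27663 bp away, depending on the library. For DMSO libraries this median was 22360 to 37875 bp.

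Which regions meet the rule depended on list length. With equal-size lists 353 regions met it, of which 86 were among the 331 (26.0% of the 331 and 24.4% of the 353). With peaks of score 100 or more, 233 met it and 86 were shared (26.0% and 36.9%). In equal-size lists 216 of the 331 no longer had all 3 DTP calls, and for 149 this was the only condition that failed. The 267 regions that met the rule only in equal-size lists were in more than 1 deposited erlotinib list, with a median of 3. All 3 settings (equal size, score and a peak cover of 50%) kept 41 regions, among them 12 of the 20 named, including 10q23.1, 1p31.3, 1q41, 7q11.22, 17q22 and the 20p12.1 region that starts at 16399358. The 5p12, 7p15.2, 2q14.2 and 11p13 regions and the 20p12.1 region that starts at 14269119 were not among them. The 41 include the 11p11.12 region whose erlotinib lists all have a missing peak number there. With erlotinib and DMSO exchanged in the rule, 527 regions met it in lists as deposited and 51 in equal-size lists.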

How the data were processed

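ATAC-seq peak lists of 18 libraries were analysed. Per the submitters' processing notes, BWA, MACS 1.4.2 and the hg19 build were used; trimming, duplicate removal, read shifting and calling parameters were not given in the sources used here. Every list holds the peaks of 1 library with a deposited score, the authors' own value per peak, whose scale is not stated and whose lowest value was 70 to 70.01 in each list. Scores were used to order or select peaks inside 1 list, never between lists.

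Peaks on chromosomes 1 to 22 and X sharing at least 1 bp were merged; 3 to 7 peaks per library lay elsewhere. A percentile is a peak's rank within its list, and a region takes its best peak. Differences in peak width between groups of 3 libraries were tested by exact permutation of libraries, two-sided (20 assignments), in Python 3.11.15 with numpy 2.4.6. The smallest possible exact permutation p was 0.1, and p-values are given unadjusted. Without read counts, the precision behind a call is unknown and the number of libraries limits it. Bands come from an hg19 band table in the R package circlize. The code was checked on simulated lists with a known set of regions. The regions, lists and tests were chosen with earlier results of these data known. Regions named are the 20 with the highest percentile in their weakest list, the 3 highest with 1 erlotinib or 4 DMSO lists, the extremes of width and the 3 closest pairs. Alternatives were a score minimum of 100, a cover of 50%, equal-size lists, other list lengths, each library left out and a replicate block. No genome sequence or gene table of hg19 was used, so promoters, genes and motifs were not analysed here.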

Additional observations from a re-analysis of the deposited data

How the results depend on the processing

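The difference between DTP and PC9 in equal-size lists kept its direction in the alternatives run. All of these used regions chosen in the deposited lists, so they cannot show what the rule sets. Regions chosen in equal-size lists would have all DTP and PC9 calls there by construction. The difference was −62.7 regions among the 10000 and −138 among the 20000 highest-scoring peaks, and −118 to −110 with each library left out. It was −19.0 over the 40 regions with 6 DMSO and no erlotinib calls, which are fewer by construction. Calls under DMSO, ALDH-high minus ALDH-low, ranged from 53.2 to 62.2 regions with each library left out and were 84.0 at a score of 100 or more, 60.3 at a cover of 50% and 22.7 in equal-size lists. The DTP minus PC9 peak width was −53.3 to −19.8 bp with each library left out. It turned to 7.67 bp at a score of 100 or more and 37.0 bp in equal-size lists, and the cause was not tested. It was −95.3 bp over the same 40 regions (exact permutation p = 0.1). As a ratio to each library's median peak width it was −0.0660 (exact permutation p = 0.1). The rule can favour PC9 over DTP, so these p-values cannot separate width from the choice of regions. The ALDH-high minus ALDH-low peak width was 45.2 to 60.8 bp with each library left out and 25.0 bp at a score of 100 or more. The number of 12 h-absent regions was 233 at a score of 100 or more, 240 at a cover of 50% (203 of them shared) and 353 in equal-size lists, and 220 to 502 with each library left out. The lowest was without ALDH-high DMSO library a, where 4 of the remaining 5 were required, and the highest without ALDH-high erlotinib library a. The restrictions to the 40 regions and to regions under 3000 bp, and the equal-size and relative widths, were chosen after seeing the data.

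The labels share the letters a, b and c, but same-letter libraries did not deviate together between DTP and PC9 or between ALDH-high and ALDH-low DMSO cells (correlations over regions from −0.0152 to 0.00913). Erlotinib libraries were not compared in this way. A replicate block gave the same differences. Peak widths, −35.0 bp for DTP minus PC9 and 54.7 bp for ALDH-high minus ALDH-low DMSO, had exact permutation p-values of 0.5 and 0.25. The smallest possible was 0.25. The −114 regions in equal-size lists and the 58.0 regions for the DMSO calls are given with no test. With 3 libraries a group, none of the tests could pass 0.05 under any setting. Read depth behind the lists is unknown, so a region near the score floor may be missing from a list for want of reads.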
